A study of Mus musculus with 10 samples.

Results

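The T-cell receptor signalling machinery is described here through 44 genes, given as a list of gene symbols grouped by function. The list holds the CD3 subunits, the kinases and adaptors next to the receptor, the enzymes they activate, phosphatases, ubiquitin ligases and other negative regulators, surface modulators, and calcineurin with its NFAT targets. All 44 symbols were found in the count tables and 44 of 44 passed the filter on low counts, among 13796 genes tested, 28262 genes with a count and 48321 symbols listed.

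The study examined the genome organiser Satb1 in splenic CD4+ T cells of C57BL/6 mice that carry a FoxP3-Gfp reporter, so that FoxP3+ cells can be sorted alive by GFP. WT mice, whose Satb1 alleles the labels do not detail, were compared with mice labelled KO, which are Satb1 F/F Thpok-cre. RNA of both genotypes was sequenced from regulatory T cells (Treg, FoxP3+CD25+) and from non-Treg (FoxP3-CD25-), and RNA of FoxP3+CD25- cells from the genotype labelled KO, with 2 libraries in each of 5 groups. Cre is driven here by Thpok, a gene of CD4 T cells that is active from the thymus on, and is thus directed at non-Treg as well as Treg. There was no WT FoxP3+CD25- group, so the part of genotype in that population cannot be told apart from the part of the phenotype. The study's methods describe mice of both sexes and 8–12 weeks of age on average, and the labels give no age for the mouse behind each library. Libraries of 1 genotype with equal replicate numbers are taken to come from 1 mouse (4 mice in all), a reading of the labels that they do not spell out.

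The T-cell receptor has no catalytic activity of its own. Its CD3 chains carry tyrosine motifs that Lck phosphorylates and Zap70 then binds, and Zap70 marks the scaffold Lat, where adaptors gather phospholipase C, exchange factors and protein kinase C and so open the calcium, Ras and NF-κB branches. Phosphatases, Csk, Cbl ligases, diacylglycerol kinases and inhibitory receptors restrain the cascade. Treg depend on receptor signals for their development and function, and are known for a raised expression of receptor-induced genes.

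The values are read counts per gene. Reads on genes ranged from 6094952 to 12410064 per library with a median of 7721649, and a floor of 3 counts corresponds to 0.242 to 0.492 CPM (counts scaled to the library total) depending on the library. Such floors cover counting error only. Every member lay above them in every library. Levels are CPM after TMM scaling, and differences are log2 fold changes with their standard error (SE). A gene was called when its false discovery rate (FDR) in edgeR's quasi-likelihood test, with Benjamini-Hochberg adjustment over all 13796 genes, was under 0.05. An exact permutation of 2 against 2 libraries cannot go below a p of 0.333, so none was used.

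Satb1 counts were not lower with the KO label in Treg, and the genotypes overlapped in non-Treg. WT Treg libraries held 379 and 478 CPM and WT non-Treg libraries 818 and 881 CPM. Libraries labelled KO held 598 and 534 CPM for Treg, 1186 and 993 CPM for FoxP3+CD25- cells and 841 and 682 CPM for non-Treg. Both libraries of Treg labelled KO lay above those of WT Treg, without a call (log2 fold change 0.40, SE 0.15, FDR 1.0), and there was none in non-Treg (-0.16, SE 0.15, FDR 0.927). Counts summed over a whole gene do not resolve single exons, and the genotype is therefore taken from the labels throughout. The sort markers followed the gates. Foxp3, the lineage factor of Treg, stood at 715 and 618 CPM in WT Treg against 18.6 and 17.96 CPM in WT non-Treg, and at 739 and 646 CPM in KO Treg, 361 and 318 CPM in KO FoxP3+CD25- cells and 38.9 and 19.5 CPM in KO non-Treg. Il2ra, which encodes CD25, stood at 658 and 760.2 CPM in WT Treg, 627 and 679 CPM in Treg labelled KO and 16.8 and 16.7 CPM in FoxP3+CD25- cells. Both libraries of WT mouse 1 carry Xist (14487 and 16362 counts) and no Ddx3y count, whereas the other 8 have at most 4 Xist counts and 1465 to 2103 Ddx3y counts. WT mouse 1 thus differs from the rest in sex. For the members, values without it are given for the calls then lost and for some values that did not pass. No fit without this mouse was run for the other gene lists.

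Per kilobase of exon, the members covered a wide range. Lck, the kinase that phosphorylates the CD3 motifs, was the most abundant member at a mean of 291 CPM per kb over the 10 libraries, followed by the diacylglycerol kinase Dgka at 278, the adhesion receptor Cd2 at 219.8 and the scaffold Lat at 206. Cd3d stood at 177, Cd3g at 148 and Cd3e at 127 CPM per kb. At the lower end were the calcineurin subunit Ppp3ca at 7.48, the phosphatase Ubash3b at 6.71 and the calcineurin inhibitor Rcan1 at 3.57 CPM per kb. Themis, a T-lineage protein that tunes signalling next to the receptor, had a mean of 15.1 CPM per kb and varied most among the members, with a highest library 5.13 times the lowest. Txk followed with a ratio of 2.38, then Nfatc1 with 2.22 and Pag1 with 2.16. The steadiest members were the protein kinase C isoform Prkcq (1.18), the calcineurin subunit Ppp3cb (1.18) and Zap70 (1.22).

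**Figure D1:**
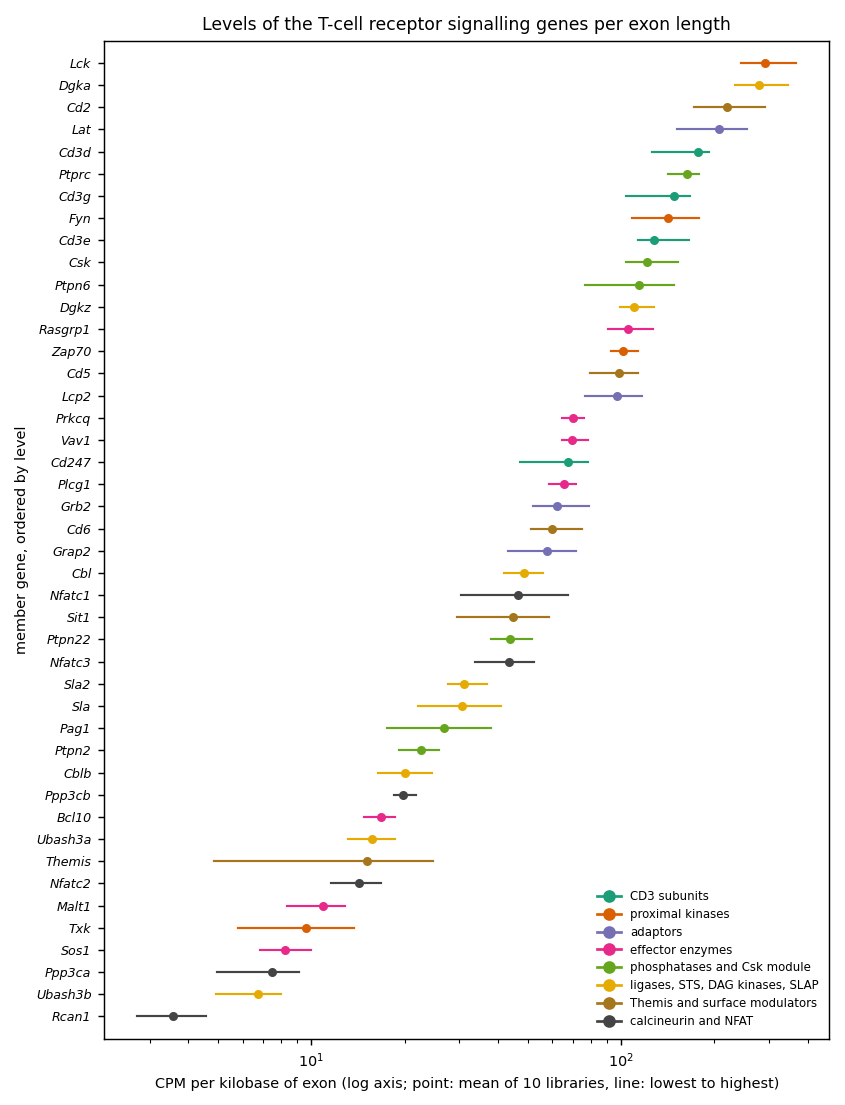
Mean CPM per kilobase of exon of each of the 44 members over 10 libraries (points, log axis), with lines from the lowest to the highest library and colours for the roles. Lck leads at 291 and Rcan1 is last at 3.57, and the line of Themis spans 4.83 to 24.8.

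In WT mice, Treg and non-Treg differed in 9 of the 44 members, or 20.5%, where 10.9% of all genes tested were called. Sla, Ubash3a and Cd2 were higher in Treg (3 of 44 members, with 7.15% of all genes higher). Themis, Dgka, Cd247, Grap2, Txk and Pag1 were lower (6 of 44 members, with 3.75% of all genes lower). Apart from Themis, which was 3.88-fold lower, these were modest differences: 39 of 44 members had a log2 fold change within 0.5 of 0, and the median member stood at -0.03 against -0.02 for all genes tested. At an unadjusted p under 0.05 there were 14 members (31.8%, against 21.9% of all genes). The members had a lower median SE than all genes tested (0.14 against 0.20). The shares of all genes, here and below, are not matched for level or SE, and the effect of this was not tested. Bulk counts do not tell fewer cells of a type from less RNA per cell, here as in the other comparisons. The count moved with single libraries. It was 4 without WT FoxP3+CD25+ replicate 1 (with 6.85% of all genes called), 10 without WT FoxP3+CD25+ replicate 2 (15.2%; Cd3d, Cd3g, Ptpn6, Sit1 and Nfatc1 were then called), 5 without WT FoxP3-CD25- replicate 1 (6.66%) and 1, Themis, without WT FoxP3-CD25- replicate 2 (5.78%), and 3 without both libraries of WT mouse 1 (5.06%; Themis, Cd2 and Ppp3ca). The share of all genes called thus moved as well. With the mouse as a block it was 15, adding Fyn, Lat, Ptpn6, Sit1, Nfatc3 and Ppp3ca, while 19.1% of all genes were then called.

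Among mice labelled KO, Treg and non-Treg differed in 4 members, or 9.09%, where 6.34% of all genes were called. Cd2 was higher (1 member, with 3.52% of all genes higher), and Themis, Pag1 and Nfatc3 were lower (3 members, with 2.81% of all genes lower). Themis, Pag1 and Cd2 were called in both genotypes, which is 33.3% of the 9 in WT and 75% of the 4 in the genotype labelled KO, and these comparisons share no library. Of all genes called, 46.1% of those in WT and 79.4% of those with the KO label were called in both. All 9 members called in WT had the same sign in the genotype labelled KO, as had 95.7% of all genes called in WT. At an unadjusted p under 0.05 there were 12 members (27.3%, against 16.0% of all genes), and the median member stood at a log2 fold change of -0.09 against -0.00 for all genes. The count was 1, Themis, without KO FoxP3+CD25+ replicate 1 (with 2.92% of all genes called), without KO FoxP3+CD25+ replicate 2 (2.72%) or without KO FoxP3-CD25- replicate 1 (3.04%), and 2 (Pag1 and Themis) without KO FoxP3-CD25- replicate 2 (2.96%). With the mouse as a block it was 11, adding Txk, Grap2, Ubash3a, Dgka, Sla, Nfatc1 and Ppp3ca, while 12% of all genes were called.

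**Figure D2:**
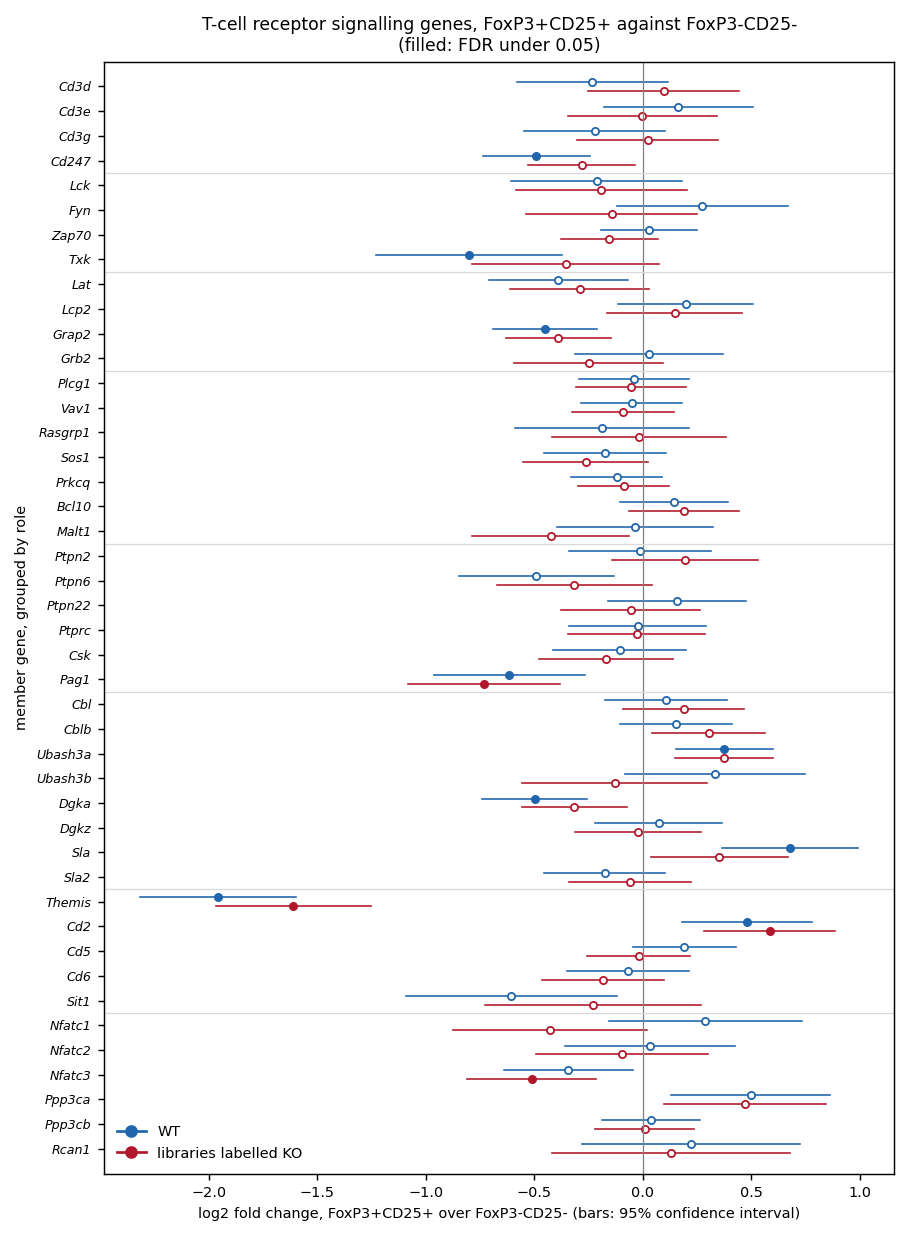
Log2 fold changes of the 44 members between FoxP3+CD25+ and FoxP3-CD25- cells in WT (blue) and in libraries labelled KO (red), with 95% confidence intervals as bars, filled where the FDR is under 0.05 and grouped by role. Themis lies apart at -1.96 and -1.61, whereas most members lie near 0.

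In FoxP3+CD25- cells, sorted only from the genotype labelled KO, no member passed the test against non-Treg, and Themis, Nfatc1 and Ppp3ca had the lowest p. Here edgeR called 0 of 44 members, where 1.67% of all genes were called. DESeq2 called 2 (Themis and Nfatc1), where it called 2.52% of the 14021 genes to which it gave an adjusted p. In edgeR's test 4 members had an unadjusted p under 0.05 (9.09%, against 10% of all genes). With the mouse as a block, 4 members were called and 5.70% of all genes. These were Themis (-0.66, FDR 0.0160), Nfatc1 (-0.84, FDR 0.000864), Ppp3ca (0.59, FDR 0.0103) and Fyn (-0.33, FDR 0.0420).

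Against KO Treg, the FoxP3+CD25- cells had 3 members called, or 6.82%, where 7.02% of all genes were called. Themis, Grap2 and Pag1 were all higher in FoxP3+CD25- cells, with 2.25% of all genes higher. No member was lower, where 4.76% of all genes were. At an unadjusted p under 0.05 there were 13 members (29.5%, against 18.9% of all genes). The comparisons within the genotype labelled KO share libraries with each other, and those between genotypes share libraries with them, so their calls are not independent. The count was 1 (Pag1) without KO FoxP3+CD25+ replicate 1 (3.36% of all genes), 1 (Themis) without KO FoxP3+CD25+ replicate 2 (3.74%), 2 (Grap2 and Themis) without KO FoxP3+CD25- replicate 1 (3.87%), and 2 (Pag1 and Themis) without KO FoxP3+CD25- replicate 2 (2.86%). With the mouse as a block it was 14, of which 9 were higher and 5 lower, adding Txk, Lcp2, Sos1, Malt1, Ptpn6, Ubash3a, Dgka, Sla, Cd2, Nfatc1 and Nfatc3, while 15.1% of all genes were called.

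No member passed the test between libraries labelled KO and WT. In Treg edgeR called 0 of 44 members, where 0.00725% of all genes were called. DESeq2 also called 0 there (0.0177% of 28262 genes with an adjusted p). Of the members, 2 had an unadjusted p under 0.05 (4.55%, against 4.30% of all genes). In non-Treg edgeR called 0 of 44 members, where 0.145% of all genes were called. DESeq2 called 0 there (0.865% of 11911 genes with an adjusted p). There 3 members had an unadjusted p under 0.05 (6.82%, against 8.02%). All 44 members had a 95% confidence interval within a log2 fold change of 1 in either direction, in Treg (bounds from -0.79 to 0.71) as in non-Treg (bounds from -0.84 to 0.82). Within 0.5 lay the intervals of 29 members in Treg and of 30 in non-Treg, so a difference past 0.5 is not excluded for the others. For the difference between the genotypes in the Treg contrast itself (the interaction), edgeR called 0 members and 0% of all genes. DESeq2 called 0 members and 0.193% of 11911 genes with an adjusted p. At an unadjusted p under 0.05 in edgeR's test there was 1 member (2.27%, against 4.97% of all genes). The interaction called 0 members and 1.08% of all genes with the mouse as a block. Interaction intervals were wider, from -1.35 for Nfatc1 to 1.07 for Sit1. A call in 1 genotype alone is therefore not shown to differ between genotypes for any member.

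**Figure D3:**
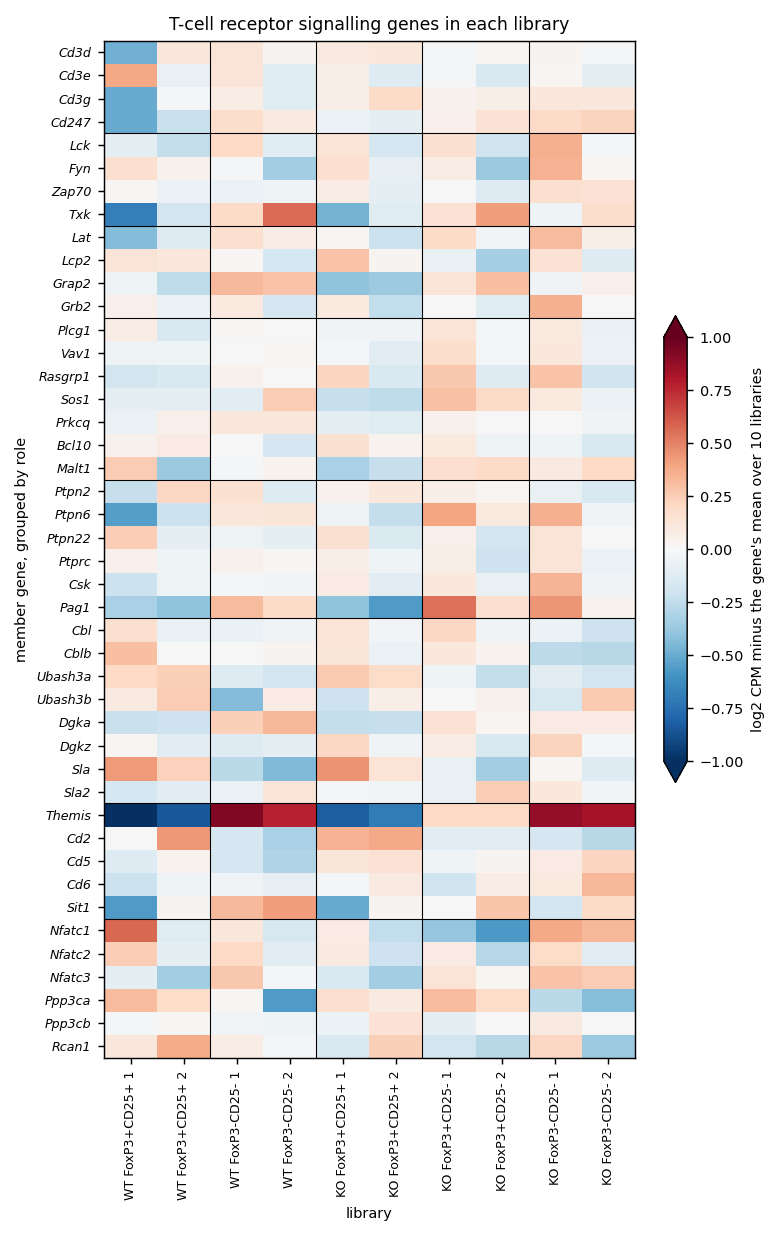
Log2 CPM of each of the 44 members minus its mean over the 10 libraries, with red above and blue below the mean, libraries in columns by group and members in lines grouped by role. Themis is lowest in the 4 FoxP3+CD25+ libraries (56.4 to 93.8 CPM), and the other members vary less.

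Themis was the member with the widest difference. It binds Grb2 and the phosphatase Shp1 near the receptor and is needed for thymocyte selection. The gene lies at chr10:28668360-28883818 on the + strand of GRCm38. Themis stood at 56.4 and 84.6 CPM in WT Treg and 289 and 259 CPM in WT non-Treg, and at 86.1 and 93.8 CPM in KO Treg, 174 and 174 CPM in KO FoxP3+CD25- cells and 279 and 270.5 CPM in KO non-Treg. Every FoxP3+CD25+ library was below every FoxP3+CD25- library, and those were below every FoxP3-CD25- library. Themis fell by 1.96 on the log2 scale in WT Treg (SE 0.16, FDR 3.71e-05, rank 54 of 13796 by p) and by 1.61 in Treg labelled KO (SE 0.16, FDR 0.000234). Both calls held whichever single library was left out. The interaction was 0.35 (SE 0.22, FDR 1.0). Mouse by mouse, Treg minus non-Treg was -2.35 and -1.61 in WT and -1.69 and -1.53 in the genotype labelled KO.

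In FoxP3+CD25- cells Themis was intermediate. On a scale from 0 for non-Treg to 1 for Treg of the same mouse, its log2 level lay at 0.400 and 0.416. It was higher in FoxP3+CD25- cells than in KO Treg (log2 fold change 0.95, SE 0.16, FDR 0.00442), a call lost without KO FoxP3+CD25+ replicate 1 (0.89, FDR 0.0528). Against KO non-Treg it did not pass (-0.66, SE 0.16, FDR 0.0730), but passed with the mouse as a block (FDR 0.0160). Pag1, by contrast, lay at -0.126 and -0.217 on that scale, and Cd2 at 0.102 and 0.253, nearer to non-Treg, whereas Nfatc3 lay at 0.346 and 0.390, near Themis. These are positions of 2 mice and carry no test of their own. Themis shares 153 exonic bases (1.31%) with the gene 4930519F09Rik.

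To show regulatory sequence next to members that were lower in WT Treg, promoter windows were read from RefSeq (build GRCm38.p6), which held 53 windows for 36 of the 44 members. There was none for Malt1, Ptpn2, Pag1, Sla, Cd2, Cd6, Nfatc1 and Ppp3ca. Each window covers the 250 bases before a transcript start. They were searched on both strands for the forkhead letters TGTTTAC, the RUNX letters TGTGGT and the ETS letters CCGGAAGT. Of 32851 windows of all genes, 3.166% held the forkhead letters, 14.05% the RUNX letters and 2.877% the ETS letters. Of the 53 member windows, 3 held the forkhead letters (5.66%; Grap2, Nfatc2 and Nfatc3), 6 the RUNX letters (11.32%; Lck, Zap70, Txk, Sos1, Ptpn22 and Sla2) and 0 the ETS letters. Shown are Themis, which had the lowest p among the members, and Grap2 and Txk, which were also called and hold a match. The Themis window, chr10:28668110-28668359 on the + strand, lies just before the gene and holds none of the 3 motifs, and neither does a second Themis window that overlaps it. The Grap2 window, chr15:80623233-80623482 on the + strand, lies in an intron of a longer annotated transcript, and its capitals mark TGTTTAC. The Txk window shown, chr5:72736603-72736852 on the - strand, is likewise intronic to a longer transcript, and its capitals mark ACCACA, the RUNX letters read on the opposite strand. The other Txk window, chr5:72752778-72753027, lies just before the gene and holds none of the 3 motifs. A match describes letters and does not show that a factor binds.
Themis: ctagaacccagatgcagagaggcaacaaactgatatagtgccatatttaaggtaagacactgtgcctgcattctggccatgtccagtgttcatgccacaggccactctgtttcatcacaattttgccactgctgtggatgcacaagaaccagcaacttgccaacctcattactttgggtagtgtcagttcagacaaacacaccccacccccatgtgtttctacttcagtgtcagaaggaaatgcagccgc
Grap2: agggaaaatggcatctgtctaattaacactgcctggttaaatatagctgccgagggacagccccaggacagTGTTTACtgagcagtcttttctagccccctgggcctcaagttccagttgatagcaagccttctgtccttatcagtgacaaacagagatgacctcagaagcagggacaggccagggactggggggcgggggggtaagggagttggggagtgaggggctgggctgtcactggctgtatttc
Txk: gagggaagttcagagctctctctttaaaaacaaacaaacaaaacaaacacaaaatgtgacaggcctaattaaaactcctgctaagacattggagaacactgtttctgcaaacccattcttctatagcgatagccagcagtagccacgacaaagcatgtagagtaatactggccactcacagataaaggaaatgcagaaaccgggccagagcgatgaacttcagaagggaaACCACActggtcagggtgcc

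Of the 4 CD3 subunits, which couple the receptor to its kinases, only Cd247 was called. It encodes the zeta chain, with more tyrosine motifs than the other subunits, and lies at chr1:165788681-165877277 (+). Cd247 stood at 251 and 304 CPM in WT FoxP3+CD25+ libraries and 403 and 378 CPM in WT FoxP3-CD25- libraries, and at 342 and 333 against 406 and 415 CPM in the genotype labelled KO. Treg libraries were below non-Treg libraries in both genotypes, but by a smaller margin in the latter. It fell by 0.49 in WT Treg on the log2 scale (SE 0.11, FDR 0.0155) and was not called in the genotype labelled KO (-0.28, FDR 0.222), with an interaction of 0.21 (FDR 1.0). The WT call was lost without FoxP3+CD25+ replicate 1 (FDR 0.102), FoxP3-CD25- replicate 1 (FDR 0.108) or FoxP3-CD25- replicate 2 (FDR 0.0635), and without WT mouse 1 its value was -0.31 (FDR 0.264). Cd247 exons share 3007 bases (56.4%) with Pou2f1 on the opposite strand and 206 with Gm16565, and the strand setting of the counting is not given in the sources used here, so its values are uncertain. Cd3g had one of the lowest p-values between Treg labelled KO (503 and 547 CPM) and WT Treg (339 and 473 CPM) but did not pass (0.37, SE 0.15, FDR 1.0), and neither did Cd247 there (0.28, SE 0.11, FDR 1.0). Without WT FoxP3+CD25+ replicate 1 these values were 0.15 for each, without WT FoxP3+CD25+ replicate 2 they were 0.63 (FDR 0.0652) and 0.42 (FDR 0.112), and without WT mouse 1 again 0.15 for each.

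Among the 4 proximal kinases, Lck and Zap70 were not called in any comparison, Fyn was called only with the mouse as a block, and the Tec-family kinase Txk was called in WT. Txk, at chr5:72695978-72752777 (-), stood at 63.5 and 90.01 CPM in WT Treg and 117 and 151 CPM in WT non-Treg, and at 73.7 and 93.9 against 99.2 and 115 CPM in the genotype labelled KO. The groups did not overlap in either genotype. The gene was lower in WT Treg (log2 fold change -0.80, SE 0.19, FDR 0.0217), not called in the genotype labelled KO (-0.36, FDR 0.447, but 0.0181 with the mouse as a block), and its interaction was 0.44 (FDR 1.0). Without WT FoxP3+CD25+ replicate 1 the FDR was 0.168, without WT FoxP3-CD25- replicate 2 it was 0.201, and without WT mouse 1 it was 0.0972.

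The adaptors hold signalling enzymes next to Lat. Of Lat, Lcp2, Grap2 and Grb2, only Grap2 was called. Its product, Gads, bridges Lat and Lcp2 (SLP-76), and the gene lies at chr15:80572594-80652854 (+). Grap2 stood at 346 and 298 CPM in WT Treg against 445 and 434 CPM in WT non-Treg. With the KO label it stood at 269.6 and 276 CPM in Treg, 389 and 438 CPM in FoxP3+CD25- cells and 346 and 368 CPM in non-Treg. Its Treg libraries were the lowest in each genotype, with no overlap. It fell by 0.45 in WT Treg (SE 0.11, FDR 0.0215), and the value in the genotype labelled KO did not pass (-0.39, FDR 0.0664, but 0.00729 with the mouse as a block; interaction 0.06, FDR 1.0). Compared with KO Treg, it was higher in FoxP3+CD25- cells by 0.60 (SE 0.11, FDR 0.00690). The WT call was lost without FoxP3-CD25- replicate 1 (FDR 0.0932), FoxP3+CD25+ replicate 2 (FDR 0.0902), FoxP3-CD25- replicate 2 (FDR 0.0830) or both libraries of WT mouse 1 (FDR 0.0657). The second call was lost without KO FoxP3+CD25+ replicate 1 (FDR 0.0703), KO FoxP3+CD25+ replicate 2 (FDR 0.0527) or KO FoxP3+CD25- replicate 2 (FDR 0.0704). Grap2 was also among the members of lowest p between genotypes and did not pass in Treg (-0.24, SE 0.11, FDR 1.0) or in non-Treg (-0.30, SE 0.11, FDR 0.471). The value in Treg was -0.13 without WT FoxP3+CD25+ replicate 1 and -0.35 without WT FoxP3+CD25+ replicate 2. Lat did not pass in WT (-0.39, FDR 0.134, but 0.0105 with the block).

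The 7 effector proteins (Plcg1, Vav1, Rasgrp1, Sos1, Prkcq, Bcl10 and Malt1) had no call in any comparison of the main model. Under alternatives, Sos1 was called between FoxP3+CD25- cells and KO Treg with the mouse or the replicate number as a block, with the legacy quasi-likelihood and with the compared libraries alone. Malt1 was called there with the mouse as a block and with the compared libraries alone, and with the latter also between Treg and non-Treg labelled KO. These 7 carry the signal to calcium, Ras and NF-κB. In WT their log2 fold changes between Treg and non-Treg ran from -0.19 to 0.14 with a lowest FDR of 0.492, and in the genotype labelled KO from -0.42 to 0.19. Closest to a call was Sos1, a Ras exchange factor, between FoxP3+CD25- cells and KO Treg (0.48, FDR 0.0506). Malt1, a paracaspase, was among the members of lowest p for the interaction and did not pass (-0.39, SE 0.23, FDR 1.0). Without WT mouse 1 the value was -0.03, without WT FoxP3+CD25+ replicate 1 alone -0.05, and without WT FoxP3+CD25+ replicate 2 -0.68 (FDR 0.0621).

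Of the 6 phosphatases and partners of the inhibitory kinase Csk, Pag1 alone was called. Pag1 is a membrane adaptor that brings Csk to Lck and Fyn, and lies at chr3:9687479-9833679 (-). In WT it stood at 199 and 189 CPM in Treg and 309.5 and 284 CPM in non-Treg. The other values were 188 and 168 CPM in KO Treg, 364 and 278 CPM in KO FoxP3+CD25- cells and 338 and 254 CPM in KO non-Treg. All 4 Treg libraries lay below all libraries of the other 3 groups. Pag1 fell by 0.62 in WT Treg (SE 0.16, FDR 0.0287) and by 0.73 in Treg labelled KO (SE 0.16, FDR 0.0195), with an interaction of -0.12 (FDR 1.0). It was higher in FoxP3+CD25- cells than in KO Treg by 0.85 (SE 0.16, FDR 0.00788). The WT call was lost without any 1 of its 4 libraries, with FDR 0.0983 and 0.0893 without FoxP3+CD25+ replicates 1 and 2, 0.152 and 0.0881 without FoxP3-CD25- replicates 1 and 2, and 0.270 without WT mouse 1. The KO call was lost without FoxP3+CD25+ replicate 1 (FDR 0.0748), FoxP3+CD25+ replicate 2 (FDR 0.170) or FoxP3-CD25- replicate 1 (FDR 0.173). Against FoxP3+CD25- cells it was lost without KO FoxP3+CD25- replicate 1 (FDR 0.0683) or KO FoxP3+CD25+ replicate 2 (FDR 0.0824). The phosphatase Ptpn6 (Shp1) did not pass in WT (-0.49, FDR 0.0870, but 0.00280 with the mouse as a block), and Ptprc, which encodes CD45, ranged from 2593 to 3274 CPM over the 10 libraries.

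The ubiquitin ligases, their partners, the diacylglycerol kinases and the Src-like adaptors gave 3 of the 9 WT calls among 8 members. Sla, an adaptor that lowers surface receptor through Cbl (chr15:66780819-66831829, -), was higher in Treg. It stood at 368 and 322 CPM in WT Treg against 228 and 203 CPM in WT non-Treg, and at 375 and 301 against 278 and 252 CPM in the genotype labelled KO. Ubash3a, a suppressor of receptor signals that binds ubiquitin (chr17:31207873-31246892, +), stood at 200.01 and 206 CPM in WT Treg and 159.8 and 153 CPM in WT non-Treg, and at 209 and 198 against 161 and 154 CPM in the genotype labelled KO. Dgka, which turns the second messenger diacylglycerol into phosphatidic acid (chr10:128720134-128744855, -), stood at 1125 and 1140.2 CPM in WT Treg and 1550.4 and 1652 CPM in WT non-Treg, and at 1111 and 1119.7 against 1386 and 1393 CPM in the genotype labelled KO. For each of these genes the Treg and non-Treg libraries did not overlap in either genotype.

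Sla rose in WT Treg by 0.68 on the log2 scale, or 1.60-fold (SE 0.14, FDR 0.00997), Ubash3a by 0.38 (SE 0.10, FDR 0.0365), and Dgka fell by 0.50 (SE 0.11, FDR 0.0128). None of these passed in the genotype labelled KO, with 0.35 for Sla (FDR 0.235), 0.37 for Ubash3a (FDR 0.0580) and -0.32 for Dgka (FDR 0.144). With the mouse as a block all 3 passed there (FDR 0.0121, 0.00934 and 0.0185). Their interactions were -0.33, -0.00 and 0.18, each with FDR 1.0. Sla was lost without WT FoxP3+CD25+ replicate 1 (FDR 0.0634) or WT FoxP3-CD25- replicate 2 (FDR 0.102), and Dgka without WT FoxP3-CD25- replicate 2 (FDR 0.0872). The Ubash3a call needed all 4 WT libraries, with FDR 0.0777 and 0.0603 without FoxP3+CD25+ replicates 1 and 2, and 0.136 and 0.215 without FoxP3-CD25- replicates 1 and 2. Leaving out WT mouse 1 ended the calls of Sla (FDR 0.112), Ubash3a (FDR 0.160) and Dgka (FDR 0.0821). Dgka shares 105 exonic bases (2.205%) with Pmel, and the related adaptor Sla2 731 (23.6%) with Rab5if. The ligase Cblb had one of the lowest p-values between the genotypes in non-Treg and did not pass (-0.28, SE 0.12, FDR 0.575). Ubash3b, a paralogue of Ubash3a with phosphatase activity, did not pass for the interaction (-0.46, SE 0.27, FDR 1.0), which was -0.21 and -0.73 without WT FoxP3-CD25- replicates 1 and 2, -0.23 without KO FoxP3-CD25- replicate 2 and -0.31 without WT mouse 1.

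Besides Themis, the surface modulators held 1 further called member. Cd2, an adhesion receptor that aids activation (chr3:101275899-101287939, -), stood at 376 and 507 CPM in WT Treg against 335 and 299 CPM in WT non-Treg. In the genotype labelled KO it stood at 479 and 489 CPM in Treg, 347 and 348 CPM in FoxP3+CD25- cells and 335 and 311 CPM in non-Treg. The 4 Treg libraries were the highest of the 10, and the 2 WT Treg libraries differed from each other more than the others did. Cd2 rose by 0.48 in WT Treg (SE 0.14, FDR 0.0469) and by 0.58 in Treg labelled KO (SE 0.14, FDR 0.0283), with an interaction of 0.11 (FDR 1.0). Without WT FoxP3+CD25+ replicate 2 the WT value was 0.26 (FDR 0.155), and the call was also lost without WT FoxP3-CD25- replicate 1 (FDR 0.118) or replicate 2 (FDR 0.295). Without WT mouse 1 it was 0.77 (FDR 0.0118). The KO call was lost without any 1 library, with FDR 0.125 and 0.165 without FoxP3+CD25+ replicates 1 and 2, and 0.116 and 0.205 without FoxP3-CD25- replicates 1 and 2. Cd5, an inhibitory receptor whose level follows receptor signal strength, had the lowest member p between the genotypes in non-Treg, at 510.3 and 559 CPM in libraries labelled KO and 428 and 390.5 CPM in WT, and did not pass (0.39, SE 0.11, FDR 0.271). Sit1, an inhibitory transmembrane adaptor, did not pass in WT (-0.61, FDR 0.122, but 0.00386 with the mouse as a block).

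Calcineurin and NFAT form the calcium branch, in which the phosphatase calcineurin releases NFAT factors into the nucleus. Of these 6 members, Nfatc3 was called, in the genotype labelled KO. Nfatc3 (chr8:106058840-106130537, +) stood at 455 and 397 CPM in KO Treg, 554 and 511 CPM in FoxP3+CD25- cells and 615 and 601 CPM in KO non-Treg, and at 475 and 396 against 608 and 497 CPM in WT Treg and non-Treg. In both genotypes the Treg libraries were below the non-Treg libraries. It fell by 0.51 in Treg labelled KO (SE 0.14, FDR 0.0497), just under the threshold, and did not pass in WT (-0.34, FDR 0.153, but 0.00721 with the mouse as a block; interaction -0.17, FDR 1.0). Leaving out any 1 of the KO libraries ended the call, with FDR 0.105 and 0.345 without FoxP3+CD25+ replicates 1 and 2, and 0.196 and 0.173 without FoxP3-CD25- replicates 1 and 2. The Nfatc3 call was also lost with RLE scaling in place of TMM and with the legacy quasi-likelihood fit. Nfatc3 shares 219 exonic bases (1.87%) with Esrp2.

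Nfatc1, the NFAT factor that is itself induced by receptor signals, was lowest in FoxP3+CD25- cells, at 258 and 226 CPM against 438 and 424 CPM in KO non-Treg and 356 and 284 CPM in KO Treg. In WT it stood at 502 and 309.7 CPM in Treg and 364 and 301 CPM in non-Treg, which overlap. The FoxP3+CD25- libraries lay below all others. Against KO non-Treg the difference did not pass edgeR's test (-0.83, SE 0.20, FDR 0.0796), and it passed with the mouse as a block (-0.84, FDR 0.000864). The Nfatc1 interaction did not pass with the mouse as a block (-0.69, SE 0.15, FDR 0.0592). In the main model it had the lowest p of the members and did not pass either (-0.72, SE 0.28, FDR 0.951). It was -0.33 without WT FoxP3+CD25+ replicate 1, -1.04 without WT FoxP3+CD25+ replicate 2 (FDR 0.0572) and -0.47 without WT mouse 1. The catalytic calcineurin subunit Ppp3ca stood at 91.01 and 83.2 CPM in FoxP3+CD25- cells and 60.9 and 54.5 CPM in KO non-Treg. It did not pass either (0.59, SE 0.17, FDR 0.140), except with the mouse (FDR 0.0103) or the replicate number as a block. In WT Treg it did not pass in the main model (0.50, FDR 0.0902). It was called there with the mouse (FDR 0.00622) or the replicate number as a block. It was also called without WT mouse 1 or without WT FoxP3-CD25- replicate 1.

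**Figure D4:**
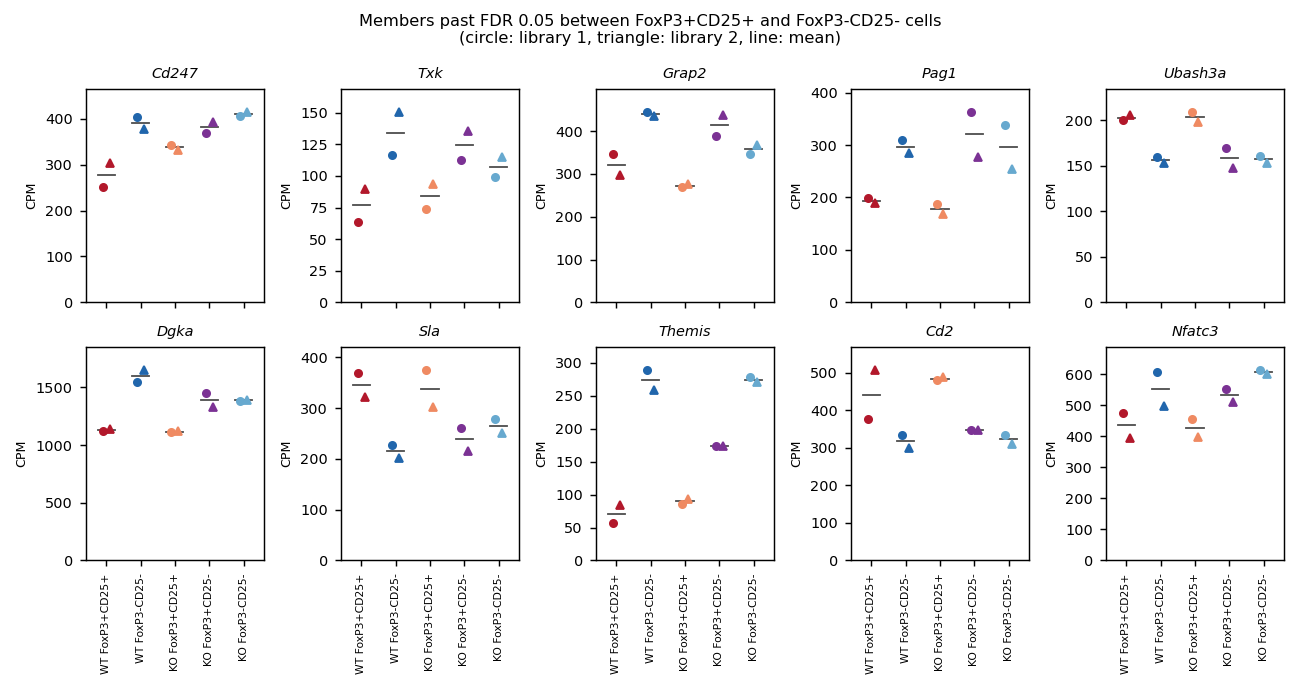
CPM in each library for the 10 members called between FoxP3+CD25+ and FoxP3-CD25- cells in either genotype (circles for library 1, triangles for library 2, lines for group means; each axis starts at 0). Themis stands at 174 and 174 CPM in KO FoxP3+CD25- cells, between KO Treg (86.1 and 93.8) and KO non-Treg (279 and 270.5).

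Read mouse by mouse, 6 members were higher and 14 lower in Treg than in non-Treg in all 4 mice, together 45.5% of 44, where 37.5% of all genes tested went one way in all 4. Of the members, 4 (9.09%, against 8.10% of all genes) went one way in both WT mice and the other way in both mice labelled KO.

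Other genes of the receptor pathway came from a list with 78 genes in the tables, of which 74 were tested. In WT Treg 6 of them were higher and 9 lower than in non-Treg (20.3%, against 10.9% of all genes), and in Treg labelled KO 3 were higher and 9 lower (16.2%, against 6.34%). Their median SE in WT was 0.13, against 0.20 for all genes, and these shares were not matched for it. The exchange factor Vav2, at 76.4 and 79.03 CPM in WT Treg and 12.3 and 8.67 CPM in WT non-Treg, stood at 86.7 and 77.4 CPM in KO Treg, 21.8 and 15.2 CPM in KO FoxP3+CD25- cells and 18.9 and 13.6 CPM in KO non-Treg. The Treg libraries were the highest, without overlap. Vav2 rose in WT Treg by 2.88 on the log2 scale (SE 0.21, FDR 2.28e-05) and in Treg labelled KO by 2.35 (SE 0.21, FDR 0.000135). The protein kinase C isoform Prkca rose by 1.04 in WT Treg (SE 0.13, FDR 0.000426). In Treg labelled KO, the SLAM adaptor Sh2d1a rose by 0.63 (SE 0.10, FDR 0.00488), while the Ras GTPase activator Rasa3 fell by 0.75 (SE 0.10, FDR 0.00177) and the phosphatase Ptpn11 by 0.94 (SE 0.16, FDR 0.00500). Sh2d1a was lost there without KO FoxP3-CD25- replicate 1 (FDR 0.0521) or KO FoxP3+CD25+ replicate 2 (FDR 0.0506), and Ptpn11 without KO FoxP3+CD25+ replicate 2 (FDR 0.0548). The 15 called in WT became 4 higher and 5 lower without WT FoxP3+CD25+ replicate 1, 7 and 6 without WT FoxP3+CD25+ replicate 2, 5 and 3 without WT FoxP3-CD25- replicate 1, and 4 and 4 without WT FoxP3-CD25- replicate 2. A block for the mouse gave 15 higher and 10 lower, so the balance of directions in WT depends on the fit. With the KO label the 12 became 2 higher and 3 lower and 1 and 1 without FoxP3+CD25+ replicates 1 and 2, 1 and 2 and then 2 and 4 without FoxP3-CD25- replicates 1 and 2, and 9 and 15 with the block. The shares of all genes called under each of these settings are those given with the members.

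In FoxP3+CD25- cells the pathway genes that differed from KO non-Treg were all lower, 5 of 74 (6.76%, against 1.35% of all genes lower). A block for the mouse gave 1 higher and 10 lower, where 5.70% of all genes were called. Dusp6, an ERK phosphatase, stood at 22.3 and 21.2 CPM against 66.7 and 59.2 CPM in KO non-Treg, and Spry1, a feedback inhibitor of Ras signalling, at 10.7 and 4.92 against 47.1 and 38.5 CPM. The phosphatase Ptpn11 stood at 150.2 and 149 against 285 and 320.01 CPM, the ligase Rnf128, known for its part in T cell anergy, at 0.808 and 0.656 against 4.80 and 7.38 CPM, and the coreceptor Cd4 at 773 and 711 against 1142 and 1145 CPM. For none of them did the groups overlap. On the log2 scale Dusp6 fell by 1.53 (SE 0.12, FDR 0.000341), Spry1 by 2.51 (SE 0.35, FDR 0.00507), Ptpn11 by 1.02 (SE 0.16, FDR 0.00954), Rnf128 by 3.08 (SE 0.54, FDR 0.0178) and Cd4 by 0.62 (SE 0.12, FDR 0.0256). Dusp6 kept its call whichever single library was left out. Without KO FoxP3+CD25- replicate 1 the calls of Ptpn11 (FDR 0.0801), Rnf128 (FDR 0.0942) and Cd4 (FDR 0.0878) were lost, and without KO FoxP3+CD25- replicate 2 those of Spry1 (FDR 0.0753), Ptpn11 (FDR 0.102), Rnf128 (FDR 0.225) and Cd4 (FDR 0.224). Without KO FoxP3-CD25- replicate 1 Cd4 was lost (FDR 0.0864), and without KO FoxP3-CD25- replicate 2 Ptpn11 (FDR 0.0853), Rnf128 (FDR 0.171) and Cd4 (FDR 0.157). Against KO Treg, in a comparison that shares the FoxP3+CD25- libraries, 6 pathway genes were higher and 6 lower (16.2%, against 7.02% of all genes). The lower ones include Vav2 (-2.16, FDR 0.000183), Sh2d1a (-0.97, FDR 0.000357), Prkca (-1.01, FDR 0.000875) and Spry1 (-2.61, FDR 0.00120). The 12 called became 1 higher and 5 lower without KO FoxP3+CD25+ replicate 1, 0 and 5 without KO FoxP3+CD25+ replicate 2, 2 and 5 without KO FoxP3+CD25- replicate 1, 1 and 5 without KO FoxP3+CD25- replicate 2, and 10 and 11 with the block, with the shares of all genes given for the members above. Between the genotypes edgeR called 0 of 74 pathway genes in Treg, in non-Treg and for the interaction, with 1, 9 and 7 at an unadjusted p under 0.05 (1.35%, 12.2% and 9.46%, against 4.30%, 8.02% and 4.97% of all genes), and DESeq2 called 0 each time. For the interaction, 3 were called with the mouse as a block (1.08% of all genes) and 1 without WT FoxP3+CD25+ replicate 2 (0.843% of all genes), all negative.

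A second list holds 12 genes that receptor signals induce. In WT Treg 4 were higher (Tnfrsf9, Tnfrsf4, Egr2 and Irf4; 33.3%, with 7.15% of all genes higher) and in Treg labelled KO 2 (Tnfrsf9 and Tnfrsf4; 16.7%, with 3.52% of all genes higher), with none lower. Tnfrsf9 (4-1BB) and Tnfrsf4 (OX40) are costimulatory receptors. Tnfrsf9 stood at 117 and 126 CPM in WT Treg and 9.36 and 8.77 CPM in WT non-Treg, and at 128 and 130.1 CPM in KO Treg, 13.9 and 9.85 CPM in KO FoxP3+CD25- cells and 9.26 and 8.43 CPM in KO non-Treg. Tnfrsf4 stood at 129 and 161 CPM in WT Treg and 18.4 and 15.2 CPM in WT non-Treg, and at 162 and 153 CPM in KO Treg, 17.8 and 13.2 CPM in KO FoxP3+CD25- cells and 22.5 and 26.7 CPM in KO non-Treg. Both were high in Treg and low in FoxP3+CD25- and FoxP3-CD25- cells, without overlap. Tnfrsf9 rose by 3.74 in WT Treg (SE 0.16, FDR 4.34e-07) and by 3.87 in Treg labelled KO (SE 0.16, FDR 1.20e-06). Tnfrsf4 rose by 3.11 (SE 0.17, FDR 2.65e-06) and by 2.67 (SE 0.17, FDR 1.70e-05), and the transcription factor Egr2 by 1.44 in WT Treg (SE 0.22, FDR 0.00164). All 12 had positive log2 fold changes in Treg of each genotype, with medians of 0.92 in WT and 0.78 with the KO label. In FoxP3+CD25- cells against KO Treg the 4 genes named for WT were lower (33.3%, with 4.76% of all genes lower), among them Tnfrsf9 (-3.46, FDR 2.03e-06) and Tnfrsf4 (-3.36, FDR 3.77e-06), all 12 were negative, and the median was -0.996. Against KO non-Treg the median was -0.10 with 0 called by edgeR, 0 by DESeq2 and 4 at an unadjusted p under 0.05 (33.3%, against 10% of all genes). The medians between genotypes were -0.00 in Treg and 0.12 in non-Treg, and -0.11 for the interaction. There edgeR called 0 of the 12 each time, with 0, 2 and 1 at an unadjusted p under 0.05 (0%, 16.7% and 8.33%, against 4.30%, 8.02% and 4.97% of all genes), and DESeq2 called 0. For the interaction 2 were called with the mouse as a block, both negative, where 1.08% of all genes were called. The block also raised the counts in the other comparisons, to 8 in WT Treg (with 19.1% of all genes called), 10 in Treg labelled KO (12%), and 2 and 8 in FoxP3+CD25- cells against KO non-Treg (5.70%) and KO Treg (15.1%). With single libraries left out, the counts in WT Treg and in FoxP3+CD25- cells against KO Treg went up or down, depending on the library.

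**Figure D5:**
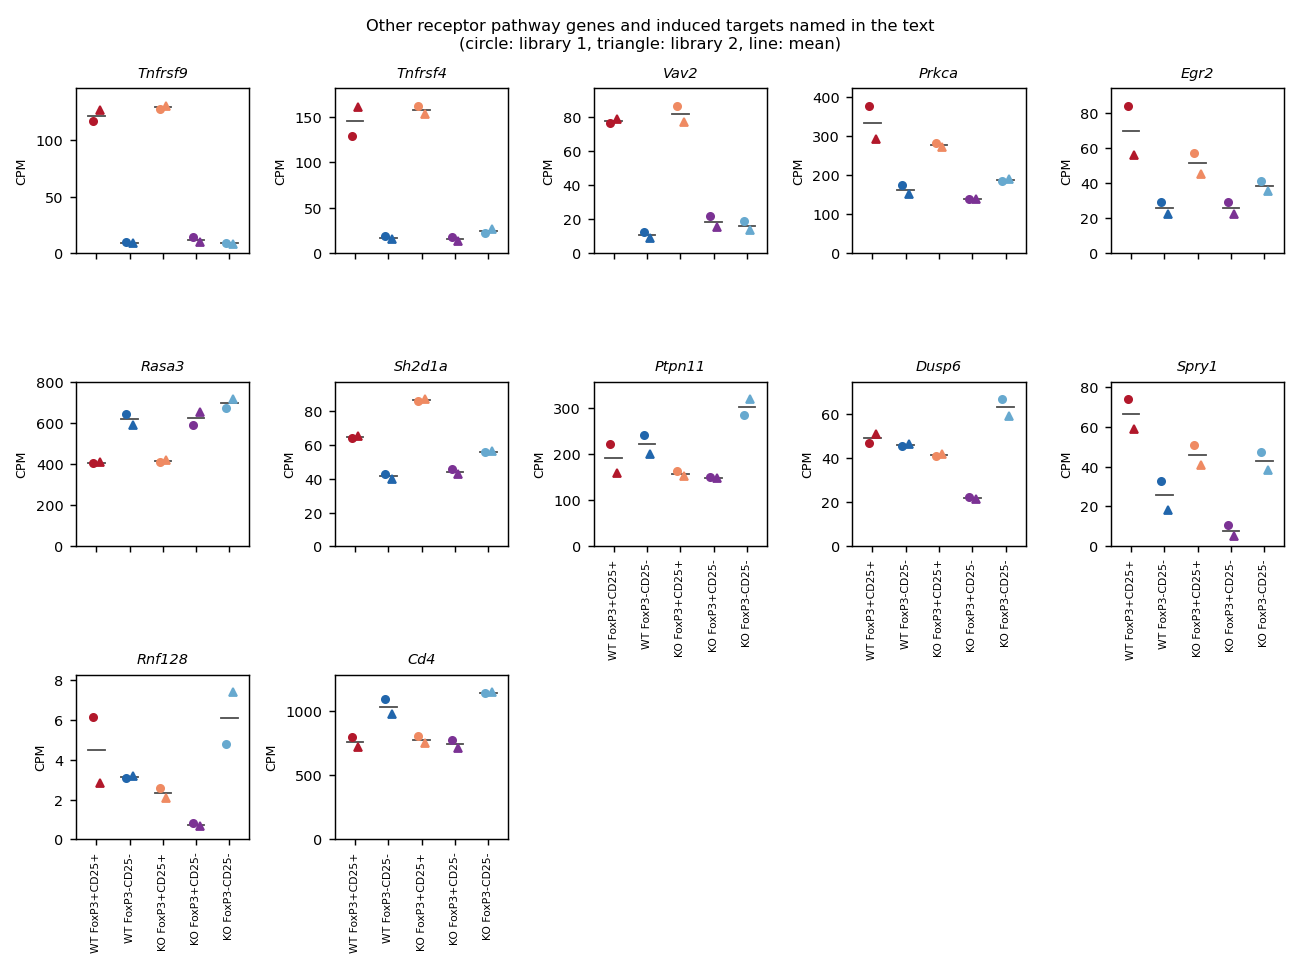
CPM in each library for 12 other receptor pathway genes and induced targets (circles for library 1, triangles for library 2, lines for group means; each axis starts at 0). Tnfrsf9 stands at 117 and 126 CPM in WT Treg against 9.85 and 13.9 CPM in KO FoxP3+CD25- cells.

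Markers of cell types and states moved with some of these groups. The sum of 8 naive T cell genes, which include Satb1 and of which Tcf7 is the most abundant (mean 1527 CPM), was 3402 and 4146 CPM in WT Treg and 7879 and 8084 CPM in WT non-Treg. In the genotype labelled KO it was 3977 and 3821 CPM in Treg, 7473 and 7564 CPM in FoxP3+CD25- cells and 7219 and 6730.2 CPM in non-Treg. Of these 8 genes 7 were lower in WT Treg and 5 in Treg labelled KO, and 6 were higher in FoxP3+CD25- cells than in KO Treg. The effector and memory genes summed to 221 to 1749 CPM (most abundant Itgb1, mean 466) and were lowest in FoxP3+CD25- cells (273 and 221). They stood at 1349.75 and 999.6 CPM in Treg and non-Treg of WT mouse 1 and 726 and 560 CPM in those of WT mouse 2, and with the KO label at 771 and 676 CPM in Treg and 1302 and 1749 CPM in non-Treg, so WT mouse 1 differs from WT mouse 2 in this sum as well as in sex. In FoxP3+CD25- cells 7 of 8 were lower than in KO non-Treg and 5 lower than in KO Treg. Of this list 2 were higher and 1 lower in WT Treg, and 3 were lower in Treg labelled KO. The Treg list, which includes the sort markers Foxp3 and Il2ra, summed to 182 to 3972 CPM (most abundant Ikzf2, mean 454), with 7 of 7 higher in Treg of each genotype, and in FoxP3+CD25- cells 2 higher than in KO non-Treg and 7 lower than in KO Treg. T cell genes, 3 of them members, summed to 3430 to 4698 CPM (most abundant Cd4, mean 891), of which 3 were lower in WT Treg, 2 in Treg labelled KO and 1 in FoxP3+CD25- cells against KO non-Treg.

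Markers of other cell types were summed in the same way. The CD8 list summed to 9.38 to 16.6 CPM (most abundant Cd8b1), the gamma-delta T cell list to 13.0 to 30.8 (Trdc), with 2 higher in Treg of each genotype and 2 lower in FoxP3+CD25- cells than in KO Treg, and the NK list to 2.63 to 27.0 (Eomes), with 1 lower in WT Treg and 1 in FoxP3+CD25- cells against KO non-Treg. B cell genes summed to 244 to 613 CPM, mostly Ighm (mean 339), and Ms4a1 had at most 5 counts in any library. Cd79b had 149 and 124 counts in WT Treg against 17 and 8 in WT non-Treg, and with the KO label 96 and 110 in Treg, 25 and 22 in FoxP3+CD25- cells and 31 and 24 in non-Treg. Of 4 B cell genes tested, 2 were higher in WT Treg, and 1 was higher and 1 lower in Treg labelled KO. In FoxP3+CD25- cells 1 was lower than in KO non-Treg and 2 were lower than in KO Treg. The plasma cell list summed to 45.1 to 88.7 CPM (Xbp1), the myeloid list to 17.6 to 25.7 (Csf1r) with 1 lower in Treg labelled KO, the dendritic list to 1.09 to 8.06 (Zbtb46) with 1 higher in WT Treg, and the erythroid list to 0.745 to 3.51 (Alas2). No gene of these lists was at 0 in all 10 libraries, and none was called between the genotypes. The part of these markers in the member results was not tested.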

How the data were processed

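RNA was measured in 10 libraries of sorted mouse CD4+ T cells, built with a NEBNext Ultra kit per the labels. The authors deposited raw read counts per gene, made with HISAT2 2.1.0 on mm10 and HTSeq 0.11.1 per the submitters' processing notes; the strand setting is not given in the sources used here. Lines that name no gene, such as reads on no feature (34.4% to 42.5% of reads), were left out, and 26.0% to 28.5% of reads lay on genes. All per-sample columns were used (0 left out).

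Genes were filtered with filterByExpr (minimum count 10), scaled by TMM and fitted in 1 model of 5 group means (5 residual degrees of freedom) with edgeR 4.0.16 (quasi-likelihood test, Benjamini-Hochberg FDR 0.05) and limma 3.58.1 in R 4.3.3. The 7 comparisons are contrasts of that model. DESeq2 1.42.0 served as an alternative, and Python 3.11.15, numpy 2.4.6 and matplotlib 3.10.9 for sequences and figures. Shares of all genes under DESeq2 are over the genes to which it gave an adjusted p, from 11911 to 28262 depending on the comparison. Under the other alternatives they are over the genes tested there. The steps were tested on simulated data. Confidence intervals are 95%. Replicate libraries of a group differed by more than counting noise (chi-square per degree of freedom 7.28 to 21.1), so none was counted as a duplicate.

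Statistics are given for the members past the FDR, at most 12 of lowest p in WT Treg against non-Treg and at most 8 in each other comparison, for the 3 of lowest p where none passed, and for at most 6 other pathway genes or induced targets in each comparison. Other members near the threshold, Irf4 and the promoter windows of Grap2 and Txk were named after their values were seen. Some genes of the lists are counted in the totals and not reported here. The members and lists were chosen with earlier results of these data known. Marker lists covered T cells, Treg, naive and effector or memory T cells, CD8 and gamma-delta T cells, NK, B and plasma cells, and myeloid, dendritic and erythroid cells. Positions are from GENCODE M21 (GRCm38).

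The pairing by mouse rests on equal replicate numbers within a genotype. Over 13796 genes, deviations from the group means correlated at 0.303 between the WT groups and at 0.433, 0.421 and 0.445 among the groups labelled KO, against -0.0114 to 0.114 across genotypes. WT mouse 1 is also marked by Xist in both its libraries. Alternatives tried were an FDR of 0.01, no filter, a filter at CPM above 1, RLE scaling, DESeq2, the legacy quasi-likelihood fit, the compared libraries alone, a block by replicate number or by mouse, each library left out, and, added later, WT mouse 1 left out.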

Additional observations from a re-analysis of the deposited data

Results flagged for a closer look

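For 4 members the Treg minus non-Treg difference went one way in both WT mice and the other way in both mice labelled KO. Each was tested as an interaction in edgeR's quasi-likelihood fit, and none passed. The difference of the contrasts, KO minus WT on the log2 scale, was -0.42 for Fyn (FDR 1.0), -0.46 for Ubash3b (FDR 1.0), -0.72 for Nfatc1 (FDR 0.951) and -0.13 for Nfatc2 (FDR 1.0). Fyn, an Src-family kinase, had per-mouse values of 0.18 and 0.39 in WT and -0.17 and -0.10 with the KO label. Ubash3b had 0.51 and 0.17 in WT and -0.05 and -0.19 with the KO label. Nfatc1 had 0.47 and 0.04 against -0.30 and -0.58, and Nfatc2, another NFAT factor, 0.05 and 0.01 against -0.09 and -0.10. Among all genes tested 8.10% showed such opposite signs, close to the 9.09% of the members. With the mouse as a block the interaction also called 0 members, where 1.08% of all genes were called. Nfatc1 came near the threshold there (-0.69, SE 0.15, FDR 0.0592). The others stood at -0.42 for Fyn (FDR 0.166), -0.47 for Ubash3b (FDR 0.353) and -0.13 for Nfatc2 (FDR 0.740).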

How the results depend on the processing

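Of 388 values of named members under the alternatives, 308 kept their direction and side of the threshold, 68 kept the direction and lost the call, 12 gained a call and 0 reversed. The 308 include members that were not called in the main model and stayed uncalled. Only called members could lose a call, so the 308 overstate how steady the calls were. Of 97 counts of called members 70 stayed within 1.5 times the reported count. These 70 include counts of 0 that stayed 0, among them every count between genotypes and for the interaction. Counts above 0 often moved past that range. Themis kept its call between Treg and non-Treg in 14 of 14 alternatives in WT and 13 of 13 with the KO label, whereas Ubash3a lost its call in 9 of 14. For WT Treg against non-Treg (9 members called), the count was 2 at an FDR of 0.01 (6.19% of all genes) and 3 with the compared libraries alone (8.03%). Leaving out WT mouse 1, with the count given above, was a choice made after seeing the data. For Treg against non-Treg labelled KO (4 called) it was 1 at an FDR of 0.01 (2.95% of all genes) and 7 with the compared libraries alone (7.09%). For KO FoxP3+CD25- cells against non-Treg (0 called) it was 2 without a filter (1.45% of all genes). It was also 2 there with the compared libraries alone (1.93%) and with DESeq2 (2.52%). Against KO Treg (3 called) it was 6 without a filter (3.94% of all genes), 6 with the compared libraries alone (7.74%) and 5 with DESeq2 (6.29%). With single libraries left out the counts ran from 1 to 10 in WT, from 1 to 2 for Treg against non-Treg labelled KO and from 1 to 2 for FoxP3+CD25- cells against KO Treg; a library left alone in its group is then assumed to vary like the other groups. With the replicate block, pairing by mouse gave 15, 11, 4 and 14 members in these 4 comparisons. The shares of all genes called were then 19.1%, 12%, 5.7% and 15.1%. Pairing by replicate number gave 12, 9, 3 and 11 members, with 14.9%, 8.61%, 2.92% and 10.3% of all genes called. Pairing by mouse ended no call of a member, and the calls it added are named with the results. Between genotypes and for the interaction, 0 members were called by edgeR and by DESeq2 under every alternative run, with 2, 3 and 1 members at an unadjusted p under 0.05 in Treg, in non-Treg and for the interaction. The cause was not tested for any of these changes.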
